A study of Mus musculus with 2 samples.

Results

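The antioxidant and glutathione genes were taken from the deposited table by symbol. The pattern covered superoxide dismutases, catalase, peroxiredoxins, glutathione peroxidases, thioredoxins, glutaredoxins, glutathione synthesis, glutathione transferases (GSTs), NRF2 and its inhibitor KEAP1, heme oxygenases, quinone reductases, sestrins, methionine sulfoxide reductases and aldo-keto reductases. It found 69 of the 12684 genes of the table, on 18 chromosomes, and none of these symbols was repeated. The pattern itself reads gene names and no measured value.

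Endothelial cells (EC) came from mouse embryos at E10.5 and were isolated by FACS from the AGM, the aorta-gonad-mesonephros tissue in which hemogenic endothelium (HE) gives rise to hematopoietic stem cells. GFP-depleted EC were CD31+, CD117-, CD45- and negative for the GFP of the transgene in Runx1+23GFP embryos, in which GFP is driven by the Runx1 +23 enhancer and marks HE. Bulk EC were CD31+, CD117- and CD45-, were not gated on GFP, and came from wildtype (WT) littermates. The genotype label is GFP+ for GFP-depleted EC and WT for bulk EC, and the strain label is Runx1+23GFP for both. As labelled, the comparison sets endothelium from which reporter-positive cells were gated out against endothelium that was not gated on the reporter. The Results of the study speak instead of reporter-positive HE beside vascular EC, while its methods and the labels name reporter-negative cells. The labels were followed, and which cells a direction refers to rests on them. Each group had 1 library, so that no difference has a replicate check and no p-value was computed. The number of embryos pooled is not given in the sources used here.

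Oxidant defense works as a chain. Superoxide dismutases turn superoxide into hydrogen peroxide, which catalase, glutathione peroxidases and peroxiredoxins then remove. Peroxiredoxins are reduced again by thioredoxin, glutathione peroxidases by glutathione, and both cofactors by reductases that spend NADPH. The transcription factor NRF2, encoded by Nfe2l2, raises many of these genes through antioxidant response elements and is held down by KEAP1.

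Values are RPKM, read numbers scaled to gene length and library depth, so that levels can be set beside each other within a library. Depth was recovered approximately from the steps of the low values, at 14600000 reads for GFP-depleted EC and 110000000 reads for bulk EC, a 7.50-fold difference. A member was called higher in a library, by the rule in the methods of the study, when the plain ratio exceeded 1.5 and at least 1 of its values reached 0.3 RPKM. The 95% interval beside a fold is exact, rests on the recovered read numbers and covers counting error only. Log2 ratios set GFP-depleted EC over bulk EC, with 0.3 RPKM added to each value, which understates the change of low genes.

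Defining endothelial genes were detected in both libraries. Pecam1 had 154 RPKM in GFP-depleted EC and 154 RPKM in bulk EC, and Cdh5 had 81.5 RPKM in GFP-depleted EC and 72.9 RPKM in bulk EC. Of 12 endothelial markers, 9 lay within 1.5 fold and 3 were higher in bulk EC. The 3 were Eng (10.2 RPKM in GFP-depleted EC, 63.0 RPKM in bulk EC, 6.15 fold), Cldn5 (83.5 RPKM in GFP-depleted EC, 197 RPKM in bulk EC, 2.36 fold) and Egfl7 (567 RPKM in GFP-depleted EC, 871 RPKM in bulk EC, 1.54 fold), of which Eng alone stayed past the threshold (4.44 fold) once the trend of the ratio with exonic GC content was subtracted. Runx1, whose enhancer drives the reporter, had 0.621 RPKM in GFP-depleted EC and 0.662 RPKM in bulk EC, 1.07-fold higher in bulk EC. Both values are low, and no counting interval was computed for Runx1. The paper describes hemogenic EC as rare, so gating them out need not lower Runx1 visibly. That point concerns the reporter-negative reading of the labels. For the reporter-positive reading, Runx1 was not higher in GFP-depleted EC. With low values and 1 library each, neither reading was tested. GFP-depleted EC and bulk EC therefore name the libraries as labelled throughout. Markers of other cells, apart from the neural ones, were mostly higher in bulk EC, beside 23.6% of all genes. These were 11 of 12 megakaryocyte, 9 of 11 erythroid, 4 of 6 myeloid, 3 of 3 nephric, 6 of 6 somite, 5 of 7 mesenchymal and 1 of 4 neural markers. Their summed levels in GFP-depleted EC, in that order, were 504, 549, 58.9, 7.65, 8.59, 17.2 and 75.2 RPKM, against 1701, 1023, 82.5, 37.2, 29.7, 32.4 and 101 RPKM in bulk EC. Much of the megakaryocyte and myeloid sums in GFP-depleted EC came from 1 level gene each, Clec1b (404 RPKM in GFP-depleted EC, 394 RPKM in bulk EC) and Laptm5 (45.4 RPKM in GFP-depleted EC, 46.6 RPKM in bulk EC). In sums added after seeing the data, without Clec1b the other 11 megakaryocyte markers summed to 100.1 RPKM in GFP-depleted EC against 1308 RPKM in bulk EC, and without Laptm5 the other 5 myeloid markers summed to 13.49 RPKM in GFP-depleted EC against 35.9 RPKM in bulk EC. Gp6, Lyz2 and Myf6 were listed at 0 in GFP-depleted EC. The table lists no gene under a lowest mean level. A marker this low in 1 library is therefore listed only with a higher value in the other. Of the symbols in these lists, 3 of 10 nephric and 6 of 11 somite ones were measured. This limit favours large folds among low markers, and its part in the counts was not tested. The mesenchymal markers Lum and Rgs5 were higher in GFP-depleted EC. With the GC trend subtracted, the markers higher in bulk EC were 11 megakaryocyte, 8 erythroid, 4 myeloid, 3 nephric, 5 somite, 4 mesenchymal and 2 neural ones. As background, a gate for CD31 and against CD45 is meant to leave out myeloid cells, which carry CD45, and somite, nephric and mesenchymal cells, which lack CD31. In such bulk libraries fewer cells of a type and less RNA per cell cannot be told apart, and the part these cells have in the results was not tested.

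As a group, and without regard to level, the antioxidant and glutathione genes had shares of calls and a median ratio near those of all genes. Of 69 members, 11 were higher in GFP-depleted EC (15.9%, against 15.3% of all genes) and 18 were higher in bulk EC (26.1%, against 23.6% of all genes), and 40 lay within 1.5 fold. The median log2 ratio was -0.02 over the members and -0.02 over all genes. The summed level of the members was 12400 RPKM in GFP-depleted EC (1.99% of the sum of all genes) and 12956 RPKM in bulk EC (2.02%). The single members spread widely, between 19.1 fold higher in GFP-depleted EC for Akr1c12 and 5.04 fold higher in bulk EC for Akr1c14. The table lists no gene under a lowest mean level, which is stated with the processing below. A member with a low value in either library, such as Akr1c14 or Gsto2, is therefore listed only with a higher value in the other. This limit favours large folds among low members, and its part in the spread was not tested.

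**Figure D1:**
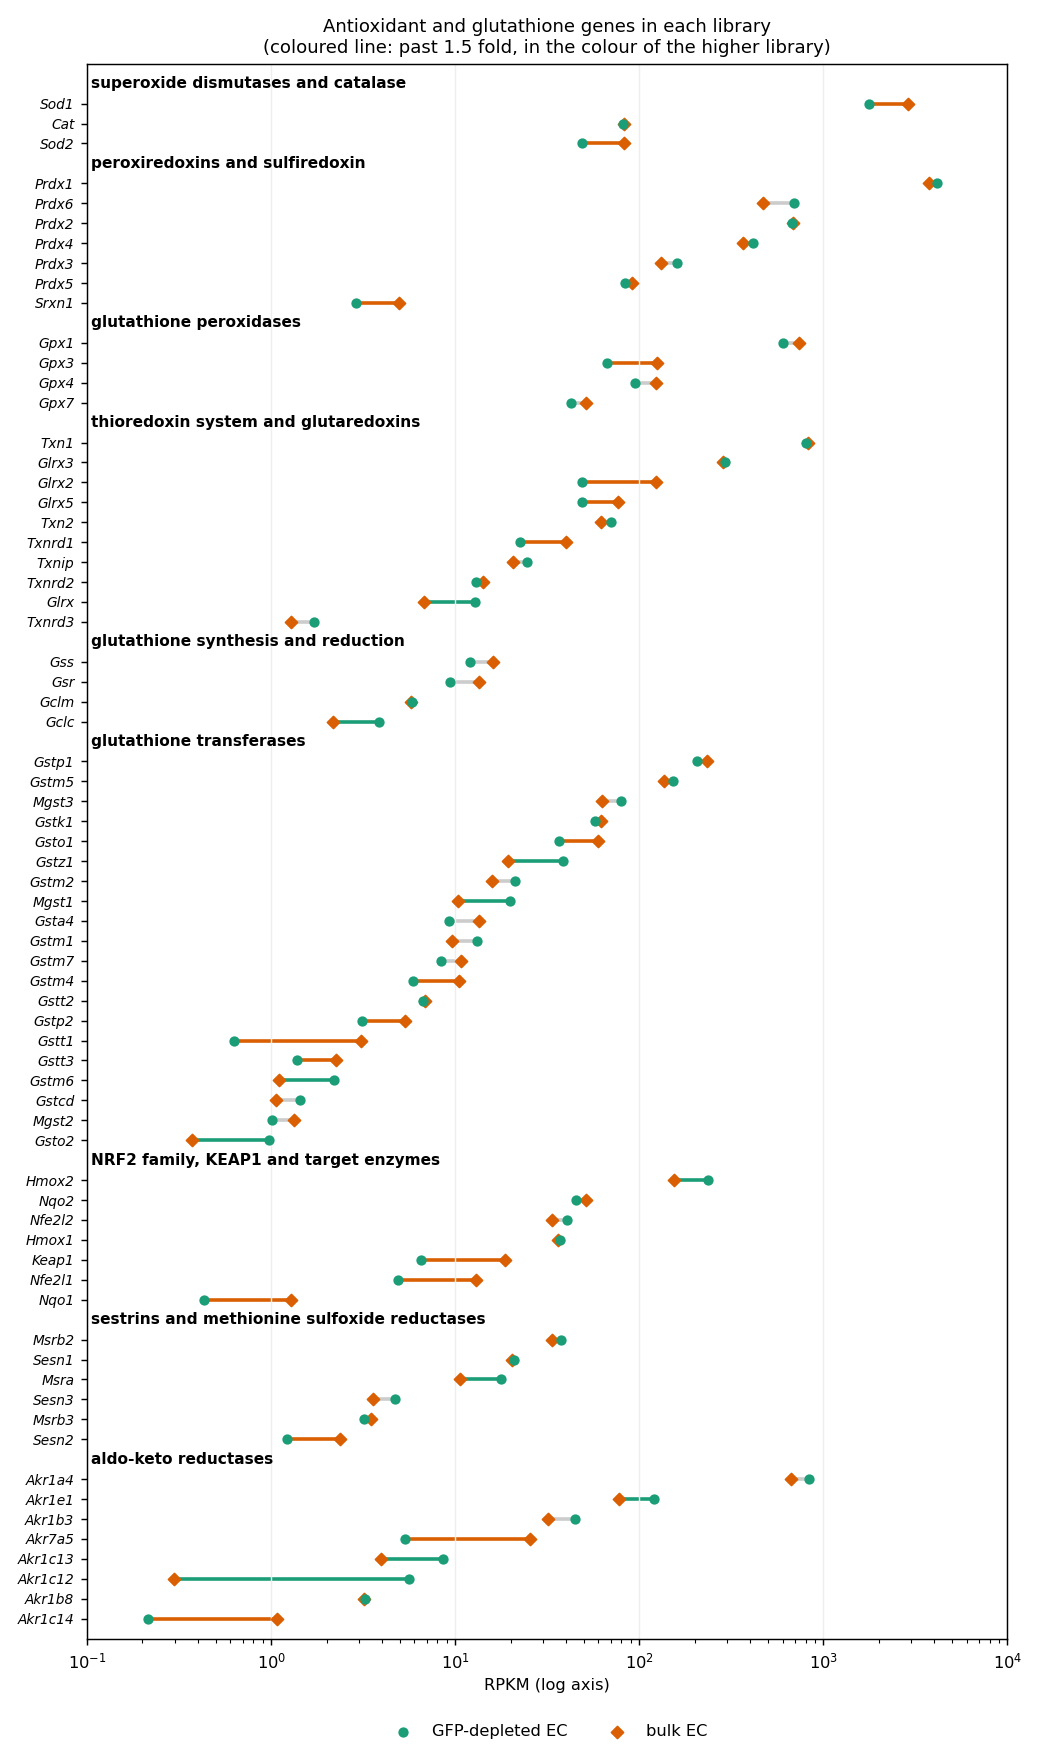
RPKM of each of the 69 members on a log axis, in GFP-depleted EC (circles) and bulk EC (diamonds), 1 library each, grouped by role. A coloured line joins the values of a member past 1.5 fold, in the colour of the higher library. Most pairs lie close together, and the longest lines belong to Akr1c12, Akr7a5, Gstt1 and Akr1c14.

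Calls were more common among low members, as they were among all genes. The limit on the mean level favours calls among low genes, and its part in these shares was not tested. Of 20 members whose higher value was under 10 RPKM, 12 were called in either direction (49.4% of all genes at that level). Of 32 members whose higher value was 10 to 100 RPKM, 12 were called (30.5% of all genes). Of 17 members whose higher value was at least 100 RPKM, 5 were called (17.1% of all genes). In each band the share of members called lay above that of all genes, on few members, and the difference was not tested. The members nearest the threshold were Hmox2 (1.53 fold) and Akr1e1 (1.55 fold) just inside and Prdx6 (1.48 fold) and Akr1b3 (1.41 fold) just outside on the side of GFP-depleted EC. On the side of bulk EC they were Glrx5 (1.58 fold) and Gsto1 (1.61 fold) inside and Gsta4 (1.47 fold) and Gsr (1.44 fold) outside.

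**Figure D2:**
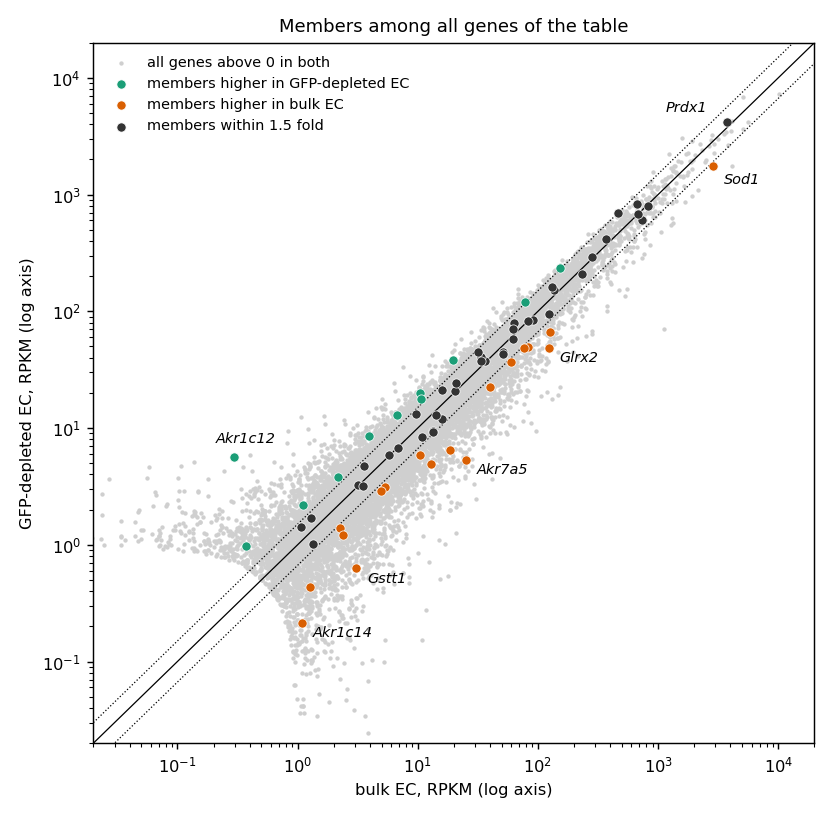
RPKM of each gene in GFP-depleted EC (vertical log axis) against bulk EC (horizontal log axis). Grey points are the genes of the table above 0 in both libraries, coloured points are the members by call, the solid line marks equal levels and the dotted lines mark 1.5 fold. The members follow the cloud of all genes, with Akr1c12 (5.64 RPKM in GFP-depleted EC, 0.296 RPKM in bulk EC) as the member farthest above it.

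The upstream sequences of members that hold the core of the antioxidant response element are shown because NRF2 acts through it. The core, TGACNNNGC on either strand, was searched in the 250 bases before each annotated start of RefSeq (GRCm38.p6), where 60 of the 69 members could be matched. It was found in 9 of these 60 members (15%) and in 14.1% of 7594 genes of the table. Members were matched by symbol or identifier, and the genes of the table by symbol alone, so that the shares compare differently matched sets. The AP-1 site TGACTCA, which is also a core where GC follows it, was found in 7 of the 60 members (11.7%) and in 3.66% of the genes of the table. The 9 members with a core were Gclm, Gstm5, Gstm7, Mgst1, Nfe2l2, Prdx1, Sesn2, Sod1 and Txnrd1. Those of Prdx1, Mgst1, Sod1 and Txnrd1 are printed 5′ to 3′ on the strand of the gene, with the core in capitals on either strand: Prdx1, the most abundant member (chr4:116685349-116685598, plus strand); Mgst1, higher in GFP-depleted EC (chr6:138140277-138140526, plus strand); and Sod1 (chr16:90220512-90220761, plus strand) and Txnrd1 (chr10:82858956-82859205, plus strand), both higher in bulk EC.
Prdx1: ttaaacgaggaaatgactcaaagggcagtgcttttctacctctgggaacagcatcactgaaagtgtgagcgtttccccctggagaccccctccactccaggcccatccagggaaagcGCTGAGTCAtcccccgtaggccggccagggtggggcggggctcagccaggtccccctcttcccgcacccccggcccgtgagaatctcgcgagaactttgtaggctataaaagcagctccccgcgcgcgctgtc
Mgst1: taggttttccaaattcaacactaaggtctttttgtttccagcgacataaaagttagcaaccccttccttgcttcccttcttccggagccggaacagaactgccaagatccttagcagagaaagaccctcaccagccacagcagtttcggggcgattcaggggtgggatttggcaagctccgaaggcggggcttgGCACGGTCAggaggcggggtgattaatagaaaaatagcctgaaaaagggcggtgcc
Sod1: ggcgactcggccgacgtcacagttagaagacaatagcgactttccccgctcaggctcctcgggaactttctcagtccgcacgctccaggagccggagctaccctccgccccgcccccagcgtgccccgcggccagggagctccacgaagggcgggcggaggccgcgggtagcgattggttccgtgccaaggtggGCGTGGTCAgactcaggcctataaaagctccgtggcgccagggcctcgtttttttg
Txnrd1: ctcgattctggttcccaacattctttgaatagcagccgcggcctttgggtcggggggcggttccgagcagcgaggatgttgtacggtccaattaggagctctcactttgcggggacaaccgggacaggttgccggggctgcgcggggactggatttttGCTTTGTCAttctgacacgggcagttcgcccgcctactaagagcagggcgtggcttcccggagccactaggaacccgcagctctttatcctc
The core lies 133 bases before the start in Prdx1, 56 bases in Mgst1, 56 bases in Sod1 and 92 bases in Txnrd1. In Prdx1 the match, read on the other strand, is an AP-1 site followed by GC. Among members called higher in GFP-depleted EC, 1 of 9 with a promoter entry held a core, against 3 of 18 called higher in bulk EC and 5 of 33 called in neither. A match is a stretch of letters and was not measured as a binding site.

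Both superoxide dismutases were higher in bulk EC as deposited, Sod1 no longer once the trend of the ratio with GC content or with exon length was subtracted, and catalase was level. Sod1, the cytosolic copper-zinc enzyme whose promoter is printed above, had 1767 RPKM in GFP-depleted EC and 2889 RPKM in bulk EC, 1.64-fold higher in bulk EC (1.61 to 1.66). With the GC trend subtracted this became 1.42 fold, and with the length trend subtracted 1.47 fold, both under the threshold. Sod2, the manganese enzyme of mitochondria, had 49.0 RPKM in GFP-depleted EC and 82.8 RPKM in bulk EC, 1.69-fold higher in bulk EC (1.62 to 1.76), and 1.91 fold with the GC trend subtracted. The ratio of the 2 levels hardly differed, with Sod1 at 36.0 times Sod2 in GFP-depleted EC and 34.9 times in bulk EC. Cat, the peroxisomal enzyme that splits hydrogen peroxide, had 82.0 RPKM in GFP-depleted EC and 82.9 RPKM in bulk EC. Both dismutases have repeated sequence: 35.4% of the 32-base windows of the Sod1 exons and 29.6% of those of Sod2 occur again in mm9, and how the authors counted such reads is not given in the sources used here.

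Peroxiredoxins and sulfiredoxin held the largest summed level of the 9 role groups, 6180 RPKM in GFP-depleted EC and 5513 RPKM in bulk EC, and none of the 6 peroxiredoxins passed 1.5 fold. Among all genes whose higher value was at least 100 RPKM, 17.1% were called, and nothing is read from 6 genes. Prdx1, a cytosolic peroxidase reduced by thioredoxin, had 4149 RPKM in GFP-depleted EC and 3766 RPKM in bulk EC, which placed it 4th among all genes in GFP-depleted EC and 9th in bulk EC. Of the Prdx1 exon windows, 16.8% are repeated in mm9. Prdx6, the form with 1 active cysteine that also acts on phospholipid hydroperoxides, had 692 RPKM in GFP-depleted EC and 468 RPKM in bulk EC. Prdx2, abundant in red cells, had 677 RPKM in GFP-depleted EC and 685 RPKM in bulk EC. Prdx4, the form of the endoplasmic reticulum, had 414 RPKM in GFP-depleted EC and 366 RPKM in bulk EC. The mitochondrial forms were lower still, Prdx3 with 161 RPKM in GFP-depleted EC and 131 RPKM in bulk EC, and Prdx5 with 83.8 RPKM in GFP-depleted EC and 91.7 RPKM in bulk EC. Srxn1, sulfiredoxin, which rescues overoxidized peroxiredoxins, had 2.89 RPKM in GFP-depleted EC and 4.97 RPKM in bulk EC, 1.72-fold higher in bulk EC (1.43 to 2.09). Its interval reached below 1.5 fold. With the GC trend subtracted Srxn1 stayed past the threshold (1.54 fold), while Prdx1 turned to 1.03-fold higher in bulk EC and Prdx5 to 1.20-fold higher in GFP-depleted EC, so that the side on which these 2 lie depends on that setting.

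As deposited, the 4 glutathione peroxidases measured had their lower values in GFP-depleted EC and 1 of them, Gpx3, passed the threshold, but with the GC trend subtracted the other 3 turned direction. Beside this, 23.6% of all genes were higher in bulk EC. Gpx3, the secreted selenoenzyme of plasma, had 67.0 RPKM in GFP-depleted EC and 125 RPKM in bulk EC, 1.87-fold higher in bulk EC (1.78 to 1.96). Gpx1, the abundant cytosolic form, had 600.2 RPKM in GFP-depleted EC and 738 RPKM in bulk EC. Gpx4, which protects membranes from lipid peroxidation, had 94.9 RPKM in GFP-depleted EC and 123.4 RPKM in bulk EC. Gpx7, a form of the endoplasmic reticulum without selenocysteine, had 42.7 RPKM in GFP-depleted EC and 51.1 RPKM in bulk EC. After subtraction of the GC trend, Gpx1 was 1.06-fold, Gpx7 1.04-fold and Gpx4 1.26-fold higher in GFP-depleted EC, for Gpx4 a move of 1.64 times. On that scale Gpx3 fell just under the threshold at 1.499 fold and the median log2 ratio of the 4 moved to 0.07, against -0.34 as deposited.

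In the thioredoxin and glutaredoxin systems the cytosolic reductase and the mitochondrial Glrx2 were higher in bulk EC, and the cytosolic glutaredoxin was higher in GFP-depleted EC. Txn1, cytosolic thioredoxin, had 806 RPKM in GFP-depleted EC and 829.7 RPKM in bulk EC. Its reductase Txnrd1, a selenoenzyme, had 22.5 RPKM in GFP-depleted EC and 40.2 RPKM in bulk EC, 1.78-fold higher in bulk EC (1.69 to 1.89). The level of Txn1 was therefore 35.7 times that of Txnrd1 in GFP-depleted EC and 20.6 times in bulk EC. The mitochondrial pair was level: Txn2 had 69.9 RPKM in GFP-depleted EC and 61.9 RPKM in bulk EC, and Txnrd2 had 13.0 RPKM in GFP-depleted EC and 14.2 RPKM in bulk EC. Txnip, which binds and inhibits thioredoxin, had 24.6 RPKM in GFP-depleted EC and 20.6 RPKM in bulk EC, and Txnrd3, a reductase best known from testis, had 1.71 RPKM in GFP-depleted EC and 1.29 RPKM in bulk EC.

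Glrx2, the glutaredoxin of mitochondria, had 48.8 RPKM in GFP-depleted EC and 123.4 RPKM in bulk EC, 2.53-fold higher in bulk EC (2.45 to 2.61), on about 3749 reads in GFP-depleted EC against 71117 in bulk EC. Glrx5, needed for the assembly of iron-sulfur clusters, had 48.8 RPKM in GFP-depleted EC and 77.0 RPKM in bulk EC, 1.58-fold higher in bulk EC (1.46 to 1.71), a call lost with the GC trend subtracted (1.12 fold) and with the length trend subtracted (1.46 fold). Glrx, the cytosolic form that removes glutathione from protein thiols, had 12.8 RPKM in GFP-depleted EC and 6.75 RPKM in bulk EC, 1.90-fold higher in GFP-depleted EC (1.65 to 2.19). Of the windows of the Glrx exons, 46.2% were repeated elsewhere in mm9. Glrx3, which carries iron-sulfur clusters in the cytosol, had 292 RPKM in GFP-depleted EC and 284 RPKM in bulk EC. The 4 glutaredoxins thus fell on both sides of the threshold, and Glrx2 and Glrx had opposite calls.

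Of the 4 genes that make and recycle glutathione, only Gclc passed the threshold. Gclc, the catalytic subunit of glutamate-cysteine ligase, the rate-limiting enzyme, had 3.83 RPKM in GFP-depleted EC and 2.16 RPKM in bulk EC, 1.78-fold higher in GFP-depleted EC (1.51 to 2.08). Gclm, its modifier subunit, had 5.85 RPKM in GFP-depleted EC and 5.77 RPKM in bulk EC, so that the level of the modifier was 1.53 times that of the catalytic subunit in GFP-depleted EC and 2.68 times in bulk EC. Gss, which adds glycine, had 12.1 RPKM in GFP-depleted EC and 16.0 RPKM in bulk EC. Gsr, which reduces oxidized glutathione, had 9.34 RPKM in GFP-depleted EC and 13.4 RPKM in bulk EC. The first enzyme of the path thus had its higher value in GFP-depleted EC, and the last step and the reductase had theirs in bulk EC.

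**Figure D3:**
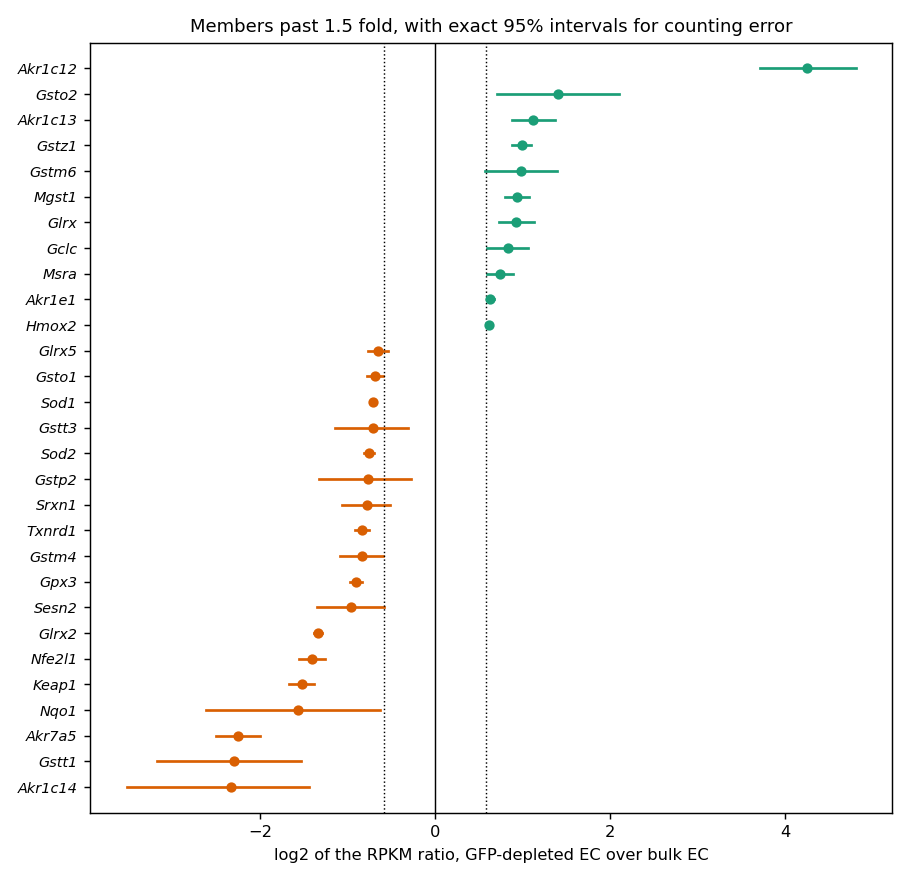
Log2 of the plain RPKM ratio, GFP-depleted EC over bulk EC (horizontal axis), for the 29 members past 1.5 fold, in order of the ratio. Bars are exact 95% intervals for counting error and dotted lines mark 1.5 fold in either direction. Whole intervals lie past the threshold for 9 members on the side of GFP-depleted EC and 14 on the side of bulk EC.

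The 20 GSTs, which join glutathione to electrophiles, had calls in both directions. Of these, 4 were higher in GFP-depleted EC (15.3% of all genes) and 5 in bulk EC (23.6% of all genes). The other 11 lay within 1.5 fold. The most abundant were level: Gstp1 had 207 RPKM in GFP-depleted EC and 232 RPKM in bulk EC, and Gstm5 had 152 RPKM in GFP-depleted EC and 136 RPKM in bulk EC. Gstz1, which isomerizes maleylacetoacetate in tyrosine breakdown, had 38.6 RPKM in GFP-depleted EC and 19.5 RPKM in bulk EC, 1.98-fold higher in GFP-depleted EC (1.84 to 2.13). Mgst1, a membrane-bound form with peroxidase activity, had 19.8 RPKM in GFP-depleted EC and 10.4 RPKM in bulk EC, 1.91-fold higher in GFP-depleted EC (1.74 to 2.10). Its relatives Mgst3 (80.0 RPKM in GFP-depleted EC, 62.7 RPKM in bulk EC) and Mgst2 (1.01 RPKM in GFP-depleted EC, 1.34 RPKM in bulk EC) stayed within the threshold. The other members within it, Gstk1, Gstm1, Gstm2, Gstm7, Gsta4, Gstt2 and Gstcd, had between 1.43 and 57.6 RPKM in GFP-depleted EC and between 1.07 and 61.8 RPKM in bulk EC.

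Several GSTs lie side by side in the genome, and neighbours did not always move together. Gsto1 (mm9 chromosome 19, 47929541 to 47939276) and Gsto2 (47940035 to 47960814), the omega class that reduces dehydroascorbate, lie 758 bases apart on the same strand and had opposite calls. Gsto1 had 36.8 RPKM in GFP-depleted EC and 59.3 RPKM in bulk EC, 1.61-fold higher in bulk EC (1.51 to 1.72). Gsto2 had 0.975 RPKM in GFP-depleted EC and 0.370 RPKM in bulk EC, 2.64-fold higher in GFP-depleted EC (1.63 to 4.29), on about 25 reads in GFP-depleted EC against 70 in bulk EC. Gsto1 thus stood at 37.7 times the level of Gsto2 in GFP-depleted EC and 160 times in bulk EC, and the share of their exon windows repeated in mm9 was 1.57% for Gsto1 and 0% for Gsto2.

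In the theta class on chromosome 10 the values went one way or were level. Gstt1 (75246560 to 75261265) had 0.627 RPKM in GFP-depleted EC and 3.08 RPKM in bulk EC, 4.91-fold higher in bulk EC (2.90 to 9.05), on about 14 reads in GFP-depleted EC against 516 in bulk EC. Gstt3, 2695 bases away, had 1.38 RPKM in GFP-depleted EC and 2.26 RPKM in bulk EC, 1.64-fold higher in bulk EC (1.24 to 2.21). Gstt2, farther along on the same strand, had 6.69 RPKM in GFP-depleted EC and 6.86 RPKM in bulk EC.

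In the mu class on chromosome 3, between Gstm5 (start 107698818) and Gstm4 (end 107847784), the 6 measured genes included 1 call in each direction. The all-gene shares were 15.3% for GFP-depleted EC and 23.6% for bulk EC. Gstm6 had 2.20 RPKM in GFP-depleted EC and 1.11 RPKM in bulk EC, 1.98-fold higher in GFP-depleted EC (1.48 to 2.62). Gstm4 had 5.89 RPKM in GFP-depleted EC and 10.52 RPKM in bulk EC, 1.79-fold higher in bulk EC (1.51 to 2.13). Of the exon windows, 20.4% of Gstm6, 42.2% of Gstm1 and 34.1% of Gstm2 were repeated elsewhere, so that reads may be divided between these copies in a way the table does not show.

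The pi class shows how far such copies can overlap. Gstp2 had 3.12 RPKM in GFP-depleted EC and 5.31 RPKM in bulk EC, 1.70-fold higher in bulk EC (1.21 to 2.51), beside its neighbour Gstp1 at 66.4 times that level in GFP-depleted EC and 43.7 times in bulk EC. Their coding sequences, of 633 bases each in GENCODE M1, differ at 12 bases (98.1% identity), and 79.9% of the windows of Gstp1 and 92.3% of those of Gstp2 occur again in mm9. The value of Gstp2 is therefore uncertain, and its call was lost with the GC trend subtracted (1.45 fold). Coding bases 1 to 120 of both (chromosome 19) are shown with the differing bases in capitals.
Gstp1: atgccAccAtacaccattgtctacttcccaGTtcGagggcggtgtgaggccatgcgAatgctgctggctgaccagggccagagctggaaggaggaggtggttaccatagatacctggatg
Gstp2: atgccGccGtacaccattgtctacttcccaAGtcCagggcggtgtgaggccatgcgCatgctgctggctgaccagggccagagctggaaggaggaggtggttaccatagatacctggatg

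Among NRF2 and its partners, the factor itself was level and its inhibitor was higher in bulk EC. Nfe2l2, which encodes NRF2, had 40.2 RPKM in GFP-depleted EC and 33.5 RPKM in bulk EC. Keap1 (chromosome 9, 21034511 to 21043261), the adaptor that sends NRF2 to degradation, had 6.49 RPKM in GFP-depleted EC and 18.7 RPKM in bulk EC, 2.88-fold higher in bulk EC (2.62 to 3.19). The level of Nfe2l2 was thus 6.20 times that of Keap1 in GFP-depleted EC and 1.79 times in bulk EC. Nfe2l1, which encodes the related factor NRF1 that raises proteasome genes, had 4.89 RPKM in GFP-depleted EC and 12.9 RPKM in bulk EC, 2.65-fold higher in bulk EC (2.39 to 2.94). Keap1 has a high exonic GC content (59.5%), and with the GC trend subtracted its fold became 1.82, still higher in bulk EC, so that the difference between these level ratios is smaller on that scale. Of its exon bases, 11.4% overlap another gene.

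The enzymes known as NRF2 targets had calls in both directions, at shares near those of all genes. Nqo1, the quinone reductase most often read as an NRF2 target, had 0.432 RPKM in GFP-depleted EC and 1.28 RPKM in bulk EC, 2.96-fold higher in bulk EC (1.55 to 6.14), on about 10 reads in GFP-depleted EC against 218 in bulk EC. Hmox1, the inducible heme oxygenase, had 37.2 RPKM in GFP-depleted EC and 36.2 RPKM in bulk EC. Of 9 established NRF2 targets among the members, a group chosen after the values were seen, 1 was higher in GFP-depleted EC (Gclc), 3 were higher in bulk EC (Nqo1, Srxn1 and Txnrd1) and 5 lay within 1.5 fold. Over all genes the shares were 15.3% on the side of GFP-depleted EC and 23.6% on the side of bulk EC, and nothing about the targets is read from these counts. Hmox2, the constitutive heme oxygenase, had 235 RPKM in GFP-depleted EC and 154 RPKM in bulk EC, 1.53-fold higher in GFP-depleted EC (1.49 to 1.57), and 40.2% of its exon bases overlap another gene. Nqo2, a quinone reductase that uses another cosubstrate, had 45.0 RPKM in GFP-depleted EC and 51.4 RPKM in bulk EC.

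Of 14 measured partners and regulators of NRF2 outside the pattern, 1 was higher in GFP-depleted EC and 5 were higher in bulk EC. Among all genes these shares were 15.3% and 23.6%. Gsk3b, a kinase that marks NRF2 for degradation, had 19.1 RPKM in GFP-depleted EC and 7.70 RPKM in bulk EC, 2.48-fold higher in GFP-depleted EC. Mafk, one of the small MAF proteins that pair with NRF2 on DNA, had 1.08 RPKM in GFP-depleted EC and 3.53 RPKM in bulk EC. Dpp3, which competes for KEAP1, had 17.5 RPKM in GFP-depleted EC and 48.0 RPKM in bulk EC. Prkcd, a kinase reported to act on NRF2, had 0.317 RPKM in GFP-depleted EC and 2.77 RPKM in bulk EC. The megakaryocyte markers were higher in bulk EC too, and their part in this difference was not tested. With the GC trend subtracted, 1 gene of the list was higher in GFP-depleted EC and 4 were higher in bulk EC.

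Sestrins and methionine sulfoxide reductases held 1 call in each direction as deposited, of which that of Sesn2 was lost with the GC trend subtracted. Sesn2, a stress-induced inhibitor of TORC1 signaling, had 1.21 RPKM in GFP-depleted EC and 2.37 RPKM in bulk EC, 1.96-fold higher in bulk EC (1.503 to 2.56) and 1.29 fold with the GC trend subtracted, on about 62 reads in GFP-depleted EC against 905 in bulk EC. Sesn1 (20.8 RPKM in GFP-depleted EC, 20.2 RPKM in bulk EC) and Sesn3 (4.70 RPKM in GFP-depleted EC, 3.57 RPKM in bulk EC) lay within the threshold. Msra, which repairs the S form of methionine sulfoxide, had 17.7 RPKM in GFP-depleted EC and 10.6 RPKM in bulk EC, 1.67-fold higher in GFP-depleted EC (1.51 to 1.85). Msrb2 and Msrb3, which repair the R form, were within the threshold, at 37.6 RPKM in GFP-depleted EC and 33.5 RPKM in bulk EC for Msrb2 and 3.19 RPKM in GFP-depleted EC and 3.49 RPKM in bulk EC for Msrb3.

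The aldo-keto reductases, which reduce aldehydes and ketones with NADPH, showed the widest spread. Of 8, 3 were higher in GFP-depleted EC (15.3% of all genes) and 2 in bulk EC (23.6% of all genes). Nothing is read from a group this small. Akr1a4, the most abundant, which reduces glucuronate on the way to ascorbate, had 836 RPKM in GFP-depleted EC and 667 RPKM in bulk EC. Akr1e1, which reduces anhydrofructose, had 120.2 RPKM in GFP-depleted EC and 77.7 RPKM in bulk EC, 1.55-fold higher in GFP-depleted EC (1.505 to 1.59), a call lost with the GC trend subtracted (1.36 fold). Akr1b3, aldose reductase, had 45.0 RPKM in GFP-depleted EC and 31.9 RPKM in bulk EC, and its neighbour Akr1b8 had 3.25 RPKM in GFP-depleted EC and 3.19 RPKM in bulk EC. Akr7a5 (chromosome 4, 138866670 to 138874340), a reductase of succinic semialdehyde and other aldehydes, had 5.34 RPKM in GFP-depleted EC and 25.4 RPKM in bulk EC, 4.75-fold higher in bulk EC (4.02 to 5.66), on about 140 reads in GFP-depleted EC against 4992 in bulk EC. Its exonic GC content was 59.1%, and with the GC trend subtracted its fold became 3.07, still past the threshold.

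Within the Akr1c genes on chromosome 13, which act on steroids and other carbonyls, neighbours had opposite calls. Akr1c12 (4267418 to 4278645) had 5.64 RPKM in GFP-depleted EC and 0.296 RPKM in bulk EC, 19.1-fold higher in GFP-depleted EC (13.1 to 28.0), on about 104 reads in GFP-depleted EC against 41 in bulk EC. Akr1c13 (4190433 to 4204842), 62575 bases away, had 8.62 RPKM in GFP-depleted EC and 3.96 RPKM in bulk EC, 2.18-fold higher in GFP-depleted EC (1.83 to 2.58). Akr1c14 (4048257 to 4089933), a hydroxysteroid dehydrogenase, had 0.215 RPKM in GFP-depleted EC and 1.08 RPKM in bulk EC, 5.04-fold higher in bulk EC (2.72 to 11.5), on about 9 reads in GFP-depleted EC against 353 in bulk EC. Akr1c12 and Akr1c13 are close copies: their coding sequences of 972 bases differ at 37 bases (96.2% identity), and 36.8% of the windows of Akr1c12 and 32.3% of those of Akr1c13 are repeated in mm9. Akr1c13 stood at 1.53 times the level of Akr1c12 in GFP-depleted EC and at 13.4 times in bulk EC. How far the counting kept the copies apart cannot be told from the table. Coding bases 361 to 480, a stretch with 9 differing bases, are shown with those bases in capitals.
Akr1c12: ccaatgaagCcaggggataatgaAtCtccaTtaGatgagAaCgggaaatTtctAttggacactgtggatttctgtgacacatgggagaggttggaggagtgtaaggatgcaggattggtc
Akr1c13: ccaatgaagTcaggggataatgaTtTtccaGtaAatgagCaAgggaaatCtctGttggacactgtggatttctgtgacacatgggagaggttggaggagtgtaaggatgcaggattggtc

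**Figure D4:**
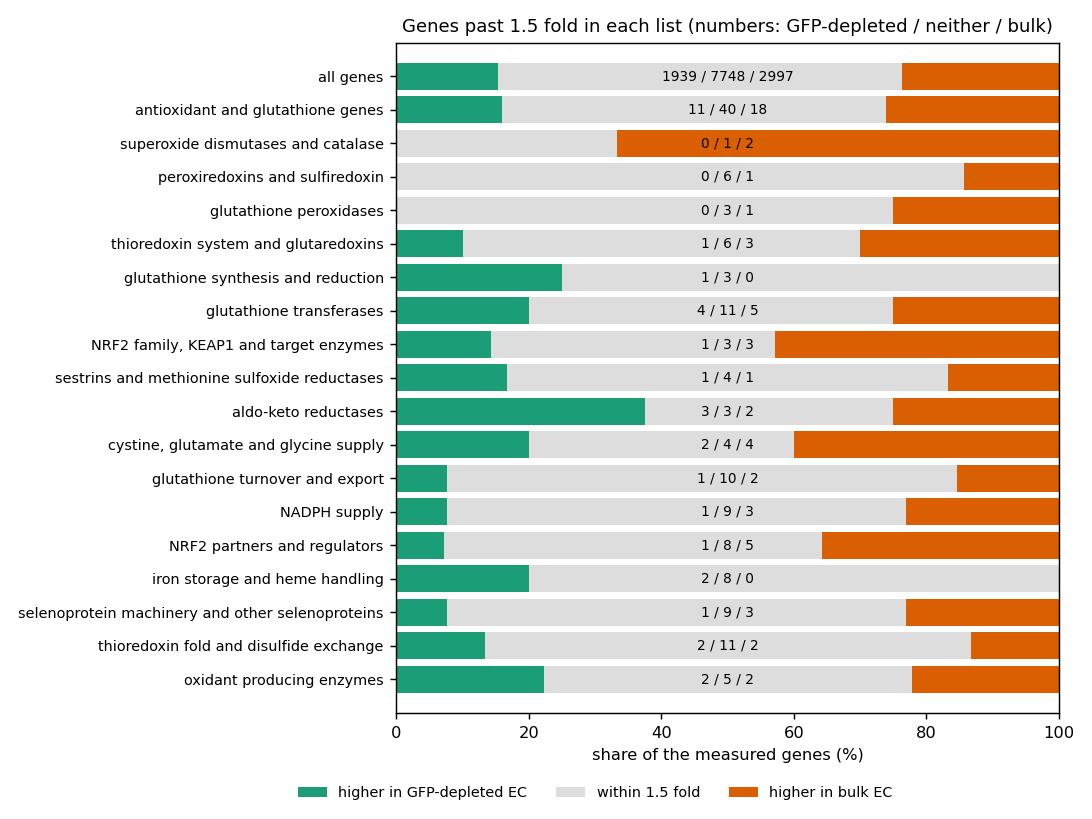
Share of the measured genes of each list (horizontal axis, percent) that were past 1.5 fold in GFP-depleted EC (left), within 1.5 fold (middle) or past it in bulk EC (right), with the numbers of genes on each bar. The bar of the 69 members (11, 40 and 18 genes) resembles the bar of all genes, and the aldo-keto reductases have 3 of 8 genes higher in GFP-depleted EC, which includes the close copies Akr1c12 and Akr1c13 and becomes 2 of 8 with the GC trend subtracted.

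Grouped by where the proteins act or what they carry, after the values were seen, none of 9 mitochondrial members was higher in GFP-depleted EC and 3 were higher in bulk EC (Glrx2, Glrx5 and Sod2). The others of the 9 were Gstk1, Msrb2, Prdx3, Prdx5, Txn2 and Txnrd2. Msra and Mgst1, both higher in GFP-depleted EC, were not placed in this group, and the absence of calls on that side rests on this choice. None of 6 selenoproteins among the members was higher in GFP-depleted EC and 2 were higher in bulk EC (Gpx3 and Txnrd1). The shares of all genes were 15.3% on the side of GFP-depleted EC and 23.6% on that of bulk EC, and nothing is read from groups this small. With the GC trend subtracted, 2 of the 9 (Glrx2 and Sod2) and 1 of the 6 (Txnrd1) stayed higher in bulk EC. The median log2 ratio was -0.12 over the mitochondrial members and -0.34 over the selenoproteins, and 0.05 and 0.07 once the GC trend was subtracted.

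The genes that feed glutathione gave mixed counts. Of 10 measured genes of cystine, glutamate and glycine supply, 2 were higher in GFP-depleted EC and 4 were higher in bulk EC. Beside these counts stand 15.3% and 23.6% of all genes. Cth, which makes cysteine from cystathionine, had 5.91 RPKM in GFP-depleted EC and 3.15 RPKM in bulk EC, and Shmt1, the cytosolic enzyme that makes glycine from serine, had 31.7 RPKM in GFP-depleted EC and 19.7 RPKM in bulk EC. Slc3a2, the heavy chain of several amino acid exchangers, had 65.3 RPKM in GFP-depleted EC and 119.8 RPKM in bulk EC, and Shmt2, the mitochondrial counterpart of Shmt1, had 23.8 RPKM in GFP-depleted EC and 39.5 RPKM in bulk EC. The cytosolic and mitochondrial serine hydroxymethyltransferases had opposite calls as deposited, but Shmt2 lost its call with the GC trend subtracted (1.18 fold). On that scale 2 genes of the list were higher in GFP-depleted EC and 1 was higher in bulk EC.

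Of 13 measured genes of glutathione turnover and export, 1 was higher in GFP-depleted EC and 2 were higher in bulk EC. The all-gene shares were 15.3% and 23.6%. With the GC trend subtracted the counts were 1 and 2, with Hagh (1.60 fold) gained for GFP-depleted EC. Chac2, which cleaves glutathione in the cytosol, had 19.9 RPKM in GFP-depleted EC and 11.2 RPKM in bulk EC, 1.77-fold higher in GFP-depleted EC and 1.47 fold, under the threshold, with the GC trend subtracted. Abcc4, an exporter, had 8.58 RPKM in GFP-depleted EC and 13.2 RPKM in bulk EC. Ggt1, which cleaves glutathione outside the cell, was listed at 0 in GFP-depleted EC and had 1.10 RPKM in bulk EC.

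NADPH supply, which both reductase systems draw on, had 1 of 13 measured genes higher in GFP-depleted EC and 3 higher in bulk EC. The all-gene shares were 15.3% and 23.6%. With the GC trend subtracted the counts were 1 and 4. Calls gained were Taldo1 (1.55 fold) for GFP-depleted EC and Nnt (1.52 fold) for bulk EC. Pgls, the second enzyme of the pentose phosphate pathway, had 18.6 RPKM in GFP-depleted EC and 105 RPKM in bulk EC, 5.65-fold higher in bulk EC. Its neighbours in the pathway were within the threshold: G6pdx had 25.4 RPKM in GFP-depleted EC and 19.99 RPKM in bulk EC, and Pgd had 56.6 RPKM in GFP-depleted EC and 51.6 RPKM in bulk EC. The folate enzymes had opposite calls as deposited, of which that of Mthfd2 was lost with the GC trend subtracted (1.49 fold), with Mthfd2 at 56.4 RPKM in GFP-depleted EC and 36.0 RPKM in bulk EC, and Mthfd1 at 18.2 RPKM in GFP-depleted EC and 33.6 RPKM in bulk EC. Nadk, which makes NADP, had 24.1 RPKM in GFP-depleted EC and 39.2 RPKM in bulk EC.

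Iron storage and heme handling, which heme oxygenase connects to oxidant defense, had 2 of 10 measured genes higher in GFP-depleted EC and none higher in bulk EC. Among all genes the shares were 15.3% and 23.6%. With the GC trend subtracted the counts were 2 and 0, with Blvrb (1.59 fold) gained for GFP-depleted EC. Ireb2, an RNA-binding sensor of iron, had 15.3 RPKM in GFP-depleted EC and 7.27 RPKM in bulk EC, 2.10-fold higher in GFP-depleted EC. Slc40a1, the iron exporter ferroportin, had 55.1 RPKM in GFP-depleted EC and 36.1 RPKM in bulk EC, 1.53-fold higher in GFP-depleted EC, a call lost with the GC trend subtracted (1.35 fold). The ferritin chains Fth1 (909.9 RPKM in GFP-depleted EC, 1078 RPKM in bulk EC) and Ftl1 (913 RPKM in GFP-depleted EC, 1122 RPKM in bulk EC) lay within the threshold, and were chosen after their values were seen.

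The ratio between the libraries moved with exonic GC content. Across the 10845 protein-coding genes with 1 RPKM or more, Spearman's rho of the log2 ratio with GC was -0.38, and over the 69 members it was -0.35, a description across genes of 2 libraries. Median exonic GC was 47.7% in the 11 members higher in GFP-depleted EC, 53.6% in the 18 members higher in bulk EC and 50.3% in the 40 others. With the GC trend subtracted, 11 members were called higher in GFP-depleted EC, 10 of them among the 11 called before, and 14 were called higher in bulk EC, 13 of them among the 18 called before. Over the 12144 genes with a GC value the same setting called 14.995% higher in GFP-depleted EC and 20.6% higher in bulk EC. The calls lost were Akr1e1 on the side of GFP-depleted EC and Glrx5, Gpx3, Gstp2, Sesn2 and Sod1 on the side of bulk EC, and the calls gained were Gstm1 for GFP-depleted EC and Gsta4 for bulk EC.

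**Figure D5:**
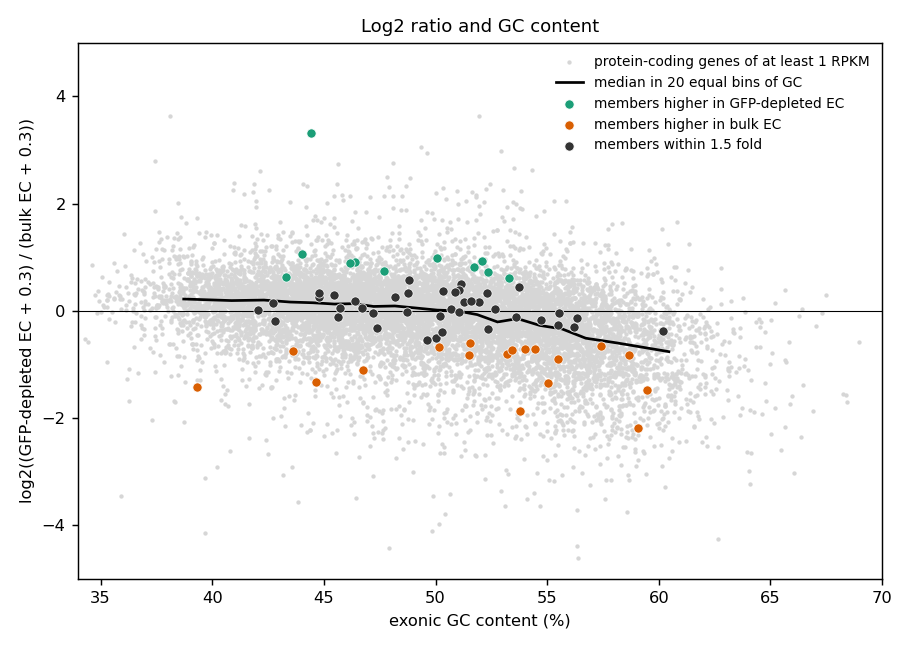
Log2 ratio of GFP-depleted EC over bulk EC (vertical axis) against exonic GC content in percent (horizontal axis). Grey points are protein-coding genes of at least 1 RPKM, the line is their median in 20 equal bins, and coloured points are the members by call. The line falls below 0 at high GC, and the members higher in bulk EC have a median GC of 53.6%, against 47.7% for those higher in GFP-depleted EC.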

How the data were processed

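RNA of FACS-isolated E10.5 AGM EC was amplified with a SMART cDNA kit, and the indexed libraries shared 1 Illumina lane. The alignment was to mm9. Among the tools, BWA 0.5.7 and Cuffdiff stand in the submitters' processing notes, with no role assigned. The authors deposited RPKM values per gene and library, beside a column with their own fold, which was not used. Counter, strand use and annotation release are not given in the sources used. The table held 12899 entries, of which a repeated symbol kept that of the highest mean, leaving 12684 genes. The lowest mean was 0.500 RPKM, so that the minimum of 0.3 RPKM removed no gene.

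No depth accompanies the table. In features under 150 bases, 98.9% of 369 values in GFP-depleted EC and 98.6% of 360 values in bulk EC lay within 0.15 of a whole multiple of 1 covered base (chance gives 30%). A read length set at 100 bases turned this into the depths and read numbers used for intervals. Among low genes, coverage fell on whole reads of that length for 46 of 270 in GFP-depleted EC and 2 of 55 in bulk EC. The read length is therefore less secure in bulk EC. Amplified reads are not independent molecules. With 1 library per group, no test was made between conditions, and members are not replicates. Exonic GC, length and overlap came from GENCODE M1 (mm9), matched by identifier for 12341 entries. Repeated windows are 32-base stretches of the exons that occur again in mm9. Trends with GC and length were fitted by lowess. All 69 members had a GC value. Calls and intervals were tested on simulated data.

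The members and lists were chosen with earlier results of these data known. Named in full are members past 1.5 fold and the 10 with the highest mean, then up to 4 genes of each of 8 pathway lists with the largest ratio, provided 1 library reached 1 RPKM. G6pdx, Pgd, Fth1, Ftl1 and the markers were named outside this rule, after their values were seen. Alternatives changed the pseudocount, threshold, minimum, centring, GC, length, overlap and repeated windows. Python 3.11.15, pandas 2.3.3, NumPy 2.4.6, SciPy 1.17.1 and statsmodels 0.14.6 were used.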

Additional observations from a re-analysis of the deposited data

How the results depend on the processing

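No paired analysis was possible because only 1 library stands in each group, and no library could be left out for the same reason. A threshold of 2 fold left 3 members higher in GFP-depleted EC and 7 higher in bulk EC, fewer by construction. Without the 17 members that have over 10% of their exon windows repeated in mm9, an alternative chosen after seeing the data, 6 of 52 members were higher in GFP-depleted EC and 14 of 52 were higher in bulk EC, with a median log2 ratio of -0.07. The members that left the count for GFP-depleted EC were Akr1c12, Akr1c13, Glrx, Gstm6 and Hmox2. The other settings gave between 9 and 12 members higher in GFP-depleted EC, between 14 and 18 higher in bulk EC, and a median log2 ratio between -0.03 and 0.05, so that the sign of the median was not stable. With the length trend subtracted, 12 members were higher in GFP-depleted EC (15.9% of 12144 genes) and 16 in bulk EC (22.4%). For the 2-fold, repeated-window and interval counts no share of all genes is given, and nothing about the members is read from them. Subtraction of the trend with length, or centring, brought Prdx6 past the threshold (1.54 and 1.504 fold higher in GFP-depleted EC), and subtraction of the length trend took Glrx5 and Sod1 (1.46 and 1.47 fold higher in bulk EC) below it. For the pathway and marker lists, subtraction of the GC trend was chosen after seeing the data. No member past the threshold changed direction under any alternative run. The counting interval lay wholly past 1.5 fold for 9 of the 11 and 14 of the 18 members called. Gstm6, Hmox2, Glrx5, Gstp2, Gstt3 and Srxn1 had intervals that reached under it. Akr1c14, Nqo1, Gstt1 and Gsto2 rested on about 9, 10, 14 and 25 reads in the shallower library, which limits their folds.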

Other observations

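Enzymes that produce oxidants stood on both sides. Of 9 measured, 2 were higher in GFP-depleted EC (15.3% of all genes) and 2 were higher in bulk EC (23.6% of all genes). Noxo1, an organizer subunit of NADPH oxidase, had 1.03 RPKM in GFP-depleted EC and 0.330 RPKM in bulk EC, 3.12-fold higher in GFP-depleted EC. Nox4, the NADPH oxidase of endothelium that releases hydrogen peroxide, had 5.29 RPKM in GFP-depleted EC and 3.32 RPKM in bulk EC, 1.59-fold higher in GFP-depleted EC. Its regulator Poldip2 had 28.9 RPKM in GFP-depleted EC and 53.6 RPKM in bulk EC, 1.85-fold higher in bulk EC. Nos3, endothelial nitric oxide synthase, had 15.04 RPKM in GFP-depleted EC and 31.4 RPKM in bulk EC, 2.08-fold higher in bulk EC. With the trend of the ratio with exonic GC content subtracted, Nox4 (1.33 fold) and Nos3 (1.41 fold) lost their calls, and Noxo1 and Poldip2 kept theirs.

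Of 15 measured genes of the thioredoxin fold and disulfide exchange, a list that holds the member Glrx3, 2 were higher in each library. Beside this stand 15.3% of all genes for GFP-depleted EC and 23.6% for bulk EC. On the GC-corrected scale the counts were 1 and 3, with Txnl1 (1.65 fold) gained for bulk EC. Pdia6 had 1310 RPKM in GFP-depleted EC and 866 RPKM in bulk EC (a call lost on the GC-corrected scale, at 1.40 fold), and Txndc5 had 28.9 RPKM in GFP-depleted EC and 19.0 RPKM in bulk EC. P4hb, the classical protein disulfide isomerase, had 266 RPKM in GFP-depleted EC and 615 RPKM in bulk EC, 2.31-fold higher in bulk EC, and Txnl4b had 12.04 RPKM in GFP-depleted EC and 21.2 RPKM in bulk EC. Among 13 measured genes of the selenoprotein machinery and other selenoproteins, 1 was higher in GFP-depleted EC and 3 were higher in bulk EC. The same shares of all genes apply. On the GC-corrected scale the counts became 2 and 2, with Sepn1 (1.53 fold) gained for GFP-depleted EC. Sephs2, which makes the selenium donor, had 4.61 RPKM in GFP-depleted EC and 10.2 RPKM in bulk EC, and Eefsec, the elongation factor for selenocysteine, had 10.6 RPKM in GFP-depleted EC and 17.4 RPKM in bulk EC (a call lost on that scale, at 1.23 fold). Sepsecs, which makes the selenocysteine carried by the tRNA, had 3.12 RPKM in GFP-depleted EC and 1.61 RPKM in bulk EC, and Selm, a selenoprotein of the endoplasmic reticulum, had 23.7 RPKM in GFP-depleted EC and 53.2 RPKM in bulk EC.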
